A study of Rattus norvegicus with 48 samples.

Results

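The circulating miRNAs of 6 strong and 6 weak regenerators were compared at week 8 after surgery, which was the last blood sampling of a rat study of skull bone repair. These 12 plasma samples were chosen by their week and by the regeneration label of the rat, and they are 12 of the 48 small RNA libraries of the study. Strong regenerators, labelled good, were rats 2, 5, 17, 21, 23 and 29, and weak regenerators, labelled bad, were rats 3, 6, 7, 16, 25 and 26. All rats were male, 12 weeks old at surgery and given as Sprague-Dawley in the methods, and each carried a defect drilled into the calvaria, the flat bone of the skull roof. The defects had been left empty or filled with a collagen-hydroxyapatite (CHA) scaffold, with CHA carrying plasmid DNA for BMP2 and miR-590-5p, or with CHA carrying extracellular vesicles of mesenchymal stromal cells. The treatment of each rat was not in the labels, and the study states that treatments were unbalanced between strong and weak regenerators, so treatment and regeneration cannot be told apart in any value below. Rats were placed in their group by the bone volume seen on microcomputed tomography at the end of the study, which is a measure other than the miRNA reads.

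MicroRNAs are RNAs of about 22 bases that bind messenger RNAs, mainly through bases 2 to 8, the seed, and lower their translation or stability. In plasma they travel in vesicles, in lipoproteins and in complexes with Argonaute proteins, and most of them come from blood cells, platelets, the vessel wall and the liver, with smaller shares from muscle and other tissues. In bone, miRNAs act on the differentiation of osteoblasts, osteoclasts and chondrocytes. A plasma library gives the share of each miRNA in the total, so a larger release from one tissue and a smaller release from the others cannot be told apart. Levels are given as reads per 1000000 miRNA reads (RPM), and differences as log2 fold changes of strong over weak regenerators with their standard error (SE).

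The 12 libraries held 393259 to 990333 miRNA reads. The total was 433308 to 990333 reads in strong and 393259 to 708614 in weak regenerators, and 391 to 448 miRNAs had a read. The labelled tissue fitted the content, since erythrocyte miRNAs led: miR-451-5p was 15.5%, miR-16-5p 8.87% and miR-486 8.21% of reads on average, and the platelet miRNA miR-223-3p and the liver miRNA miR-122-5p were in every library. None of 8 library measures differed between the groups by an exact permutation test over the rats, with an adjusted p of 0.494 for each of them. The nearest was the number of miRNAs with over 10 reads, 275 ± 16.1 (SD, n = 6) in strong and 257 ± 15.1 (SD, n = 6) in weak regenerators, with an unadjusted exact p of 0.0801. The haemolysis ratio, log2 of miR-451-5p over miR-23a-3p, was 2.83 ± 0.52 (SD, n = 6) in strong and 3.08 ± 0.33 (SD, n = 6) in weak regenerators. The week 8 libraries stood apart from the other weeks in their synthetic spike-in RNA, with 91.1 to 144 UniSp2 reads per 1000 miRNA reads against 23.3 to 60.4 at the other weeks, so that only week 8 samples entered the main comparison.

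The miRNAs below are a selection from those with the smallest p, or relatives of these by seed or cluster. Their mature sequences are from RefSeq (rat build GRCr8), 5′ to 3′, with the seed (bases 2 to 8) in capitals. The first are the miRNAs higher in strong regenerators, grouped by shared seed.
miR-196a-5p: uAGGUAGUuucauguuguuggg
miR-196b-5p: uAGGUAGUuuccuguuguuggg
miR-1-3p: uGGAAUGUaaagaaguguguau
miR-1b: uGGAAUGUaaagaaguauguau
miR-206-3p: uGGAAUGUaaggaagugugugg
miR-133a-3p: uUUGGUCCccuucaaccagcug
miR-133b-3p: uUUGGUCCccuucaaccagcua
miR-224-5p: cAAGUCACuagugguuccguuu
miR-203b-3p: uUGAACUGuuaagaaccacugg
miR-615: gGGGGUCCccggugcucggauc
The next are those with a log2 fold change below 0.
miR-145-5p: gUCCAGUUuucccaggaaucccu
miR-145-3p: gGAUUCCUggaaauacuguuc
miR-143-3p: uGAGAUGAagcacuguagcuca
miR-195-5p: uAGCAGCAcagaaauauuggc
miR-497-5p: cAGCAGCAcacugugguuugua
Of the 24 miRNAs named by the fixed rule, 22 matched a RefSeq entry, and miR-335 and miR-383-5p are named only. The members of 3 pairs, miR-196a-5p and miR-196b-5p, miR-1-3p and miR-1b, and miR-133a-3p and miR-133b-3p, differ at 1 of 22 bases, and miR-1-3p and miR-206-3p at 3 of 22. Reads with a sequencing error can be counted for the other member of such a pair. A difference between its members is therefore uncertain, and a shared direction can rest on shared reads.

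Positions are given in GRCr8. The gene of miR-196a lies next to Hoxc10 (mature sequence at chr7:135988900-135988921, plus strand, 1458 bases from the gene), that of miR-196b next to Hoxa10 (chr4:82661149-82661170, minus strand, 1034 bases away), and miR-615 within the spans of Hoxc6 and Hoxc5 (chr7:136030369-136030390, plus strand). The Hox clusters hold the transcription factors that set position along the body axis. The miR-1 and miR-133a hairpins lie together within the span of Mib1 (chr18:2160339-2160360 and chr18:2157886-2157907, minus strand), and miR-224 lies within Gabre, a GABA receptor subunit gene (chrX:155107183-155107204, minus strand). Among the lower miRNAs, miR-143 and miR-145 lie within the long non-coding RNA gene Carmn (chr18:57371373-57371394 for miR-143-3p and chr18:57370033-57370055 for miR-145-5p, minus strand), and miR-497 and miR-195 lie 455 and 119 bases from C10h17orf49 (chr10:55450172-55450193 and chr10:55450509-55450529, plus strand).

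Across the table, no miRNA separated strong from weak regenerators at week 8. Of 645 miRNAs, 572 had a read at week 8 and were tested with edgeR's quasi-likelihood test, and 0 (0%) had a false discovery rate (FDR) under 0.05. An unadjusted p under 0.05 was reached by 28 miRNAs (4.9%), 19 higher (3.32%) and 9 lower (1.57%) in strong regenerators, and the smallest FDR was 0.20. DESeq2 and limma-voom also called 0 miRNAs, with 17 and 27 at an unadjusted p under 0.05. With library size in place of TMM scaling, the 28 miRNAs under that p split into 26 higher and 2 lower.

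The precision followed the depth. Over the 297 miRNAs with a mean of at least 10 RPM the median SE of the log2 fold change was 0.26, and it ran from 1.07 for miRNAs under 1 RPM through 0.35 at 10 to 100 RPM to 0.16 above 1000 RPM. The median size of the difference over the 297 miRNAs was 0.17, and 144 (48.5%) lay above and 153 (51.5%) below 0, with a median of -0.01. A difference over 2-fold was measured for 11 of the 297. In none of the 297 (0%) were the values of all strong regenerators on one side of all weak regenerators, so every miRNA described below had rats of both groups in the same range of levels.

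**Figure D1:**
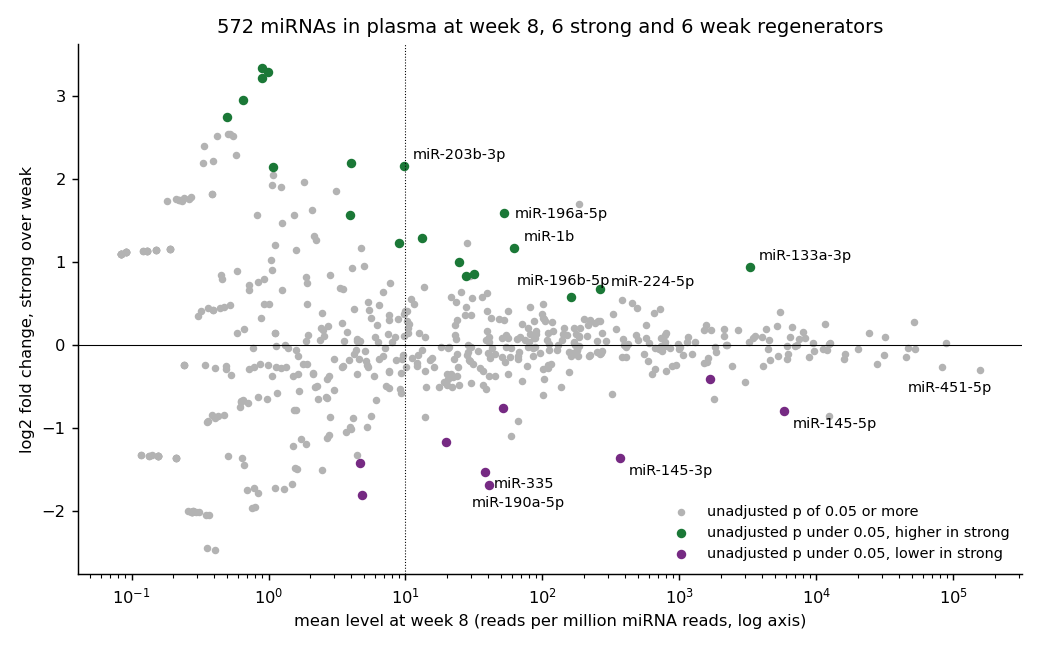
Log2 fold change of strong over weak regenerators (vertical axis) against the mean level at week 8 in RPM (horizontal log axis) for 572 miRNAs, with the dotted line at 10 RPM. Grey points had an unadjusted p of 0.05 or more, and the 19 green and 9 purple points lay under it, with none at an FDR under 0.05; the spread narrows towards abundant miRNAs.

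The whole profiles did not separate either. Pearson's r of log2(RPM + 1) over the 297 miRNAs had a median of 0.978 between strong regenerators, 0.969 between weak regenerators and 0.973 between the groups, and all pairs lay between 0.931 and 0.985. The mean distance between groups exceeded that within groups by 0.000379, with a one-sided exact permutation p of 0.377. The nearest profile was one of the same group for 7 of 12 rats.

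The 12 named miRNAs on each side are those with the smallest p among the 297, so their tests describe the comparison that chose them. An exact permutation test over the 12 rats gave a p under 0.05 for 8 of the 24, all 8 of them higher in strong regenerators, and the smallest value adjusted over the 24 was 0.0727. On the lower side the smallest exact p was 0.0866, for miR-144-5p. The exact test used RPM, which is scaled to library size without TMM. At an unadjusted p under 0.05, the fit had 26 miRNAs higher and 2 lower with that scaling, against 19 and 9 with TMM.

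The Hox-cluster miRNAs miR-196a-5p and miR-196b-5p, which repress Hox messenger RNAs, were higher in strong regenerators, and miR-615 lay in the same direction. miR-196a-5p was 34.4 to 148 RPM in strong regenerators with a median of 78.0 RPM, and 2.54 to 48.8 RPM in weak regenerators with a median of 21.7 RPM. Of the 6 strong regenerators 5 lay above every weak regenerator, and strong rat 17 lay below weak rats 6 and 25. In the fit this was a 3.03-fold difference (log2 fold change 1.597, SE 0.40), with an FDR of 0.20 in edgeR and an exact permutation p of 0.00866. It lay between 1.37 and 1.84 when any rat was left out, and DESeq2 gave an adjusted p of 0.0511.

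miR-196b-5p, which shares the seed, was 163 to 239.8 RPM in strong regenerators with a median of 195 RPM, and 76.2 to 168 RPM in weak regenerators with a median of 132 RPM. Again 5 of 6 strong regenerators lay above every weak regenerator. Its log2 fold change was 0.58 (SE 0.22), with an exact permutation p of 0.00649 and an FDR of 0.736. miR-615 was 3.27 to 34.4 RPM (median 14.6 RPM) in strong and 1.62 to 16.9 RPM (median 6.15 RPM) in weak regenerators, a log2 fold change of 1.29 (SE 0.53) with an exact permutation p of 0.0563. Among other miRNAs of the Hox clusters, miR-10b-5p, within Hoxd4, had a log2 fold change of 0.30 (SE 0.23), and miR-10a-5p, next to Hoxb4, one of -0.59 (SE 0.35), which was -0.04 without weak rat 26.

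miR-224-5p, an miRNA known from ovarian granulosa cells, was 236 to 416 RPM in strong regenerators (median 329 RPM) and 126 to 297 RPM in weak regenerators (median 189 RPM). The highest 3 strong regenerators, rats 5, 21 and 23, lay above all weak regenerators. In the fit this was a 1.59-fold difference (log2 fold change 0.67, SE 0.23), with an exact permutation p of 0.0152 and an FDR of 0.736, and it lay between 0.57 and 0.79 with any rat left out.

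The smallest p of all 572 miRNAs belonged to miR-203b-3p, which lay just outside the rule for naming with a mean of 9.70 RPM and is described here because its values were seen. It counted 11, 8, 5, 13, 15 and 11 reads in strong rats 2, 5, 17, 21, 23 and 29, and 2, 1, 1, 1, 5 and 1 reads in weak rats 3, 6, 7, 16, 25 and 26. In RPM it was 9.07 to 30.0 (median 12.3) in strong and 1.41 to 9.38 (median 2.11) in weak regenerators, and weak rat 25 was the one weak regenerator that reached the strong range. The log2 fold change was 2.15 (SE 0.53) with an FDR of 0.20 and an exact permutation p of 0.00433. The sums of 63 and 11 reads give a ratio of 4.68, with an exact 95% interval of 2.45 to 9.85 that covers counting error only. A fit on all 48 samples gave it an FDR of 0.0223, the single call of that fit at week 8. That fit treated libraries of the same rat as independent. It also included the other weeks, from which the week 8 libraries stood apart in spike-in reads. Its hairpin, Mir3545 (mature sequence at chr6:137020716-137020737, minus strand), lies opposite that of miR-203a-5p (chr6:137020718-137020738, plus strand), and the skin and epithelium miRNA miR-203a-3p of that locus had a log2 fold change of 0.25 (SE 0.35).

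**Figure D2:**
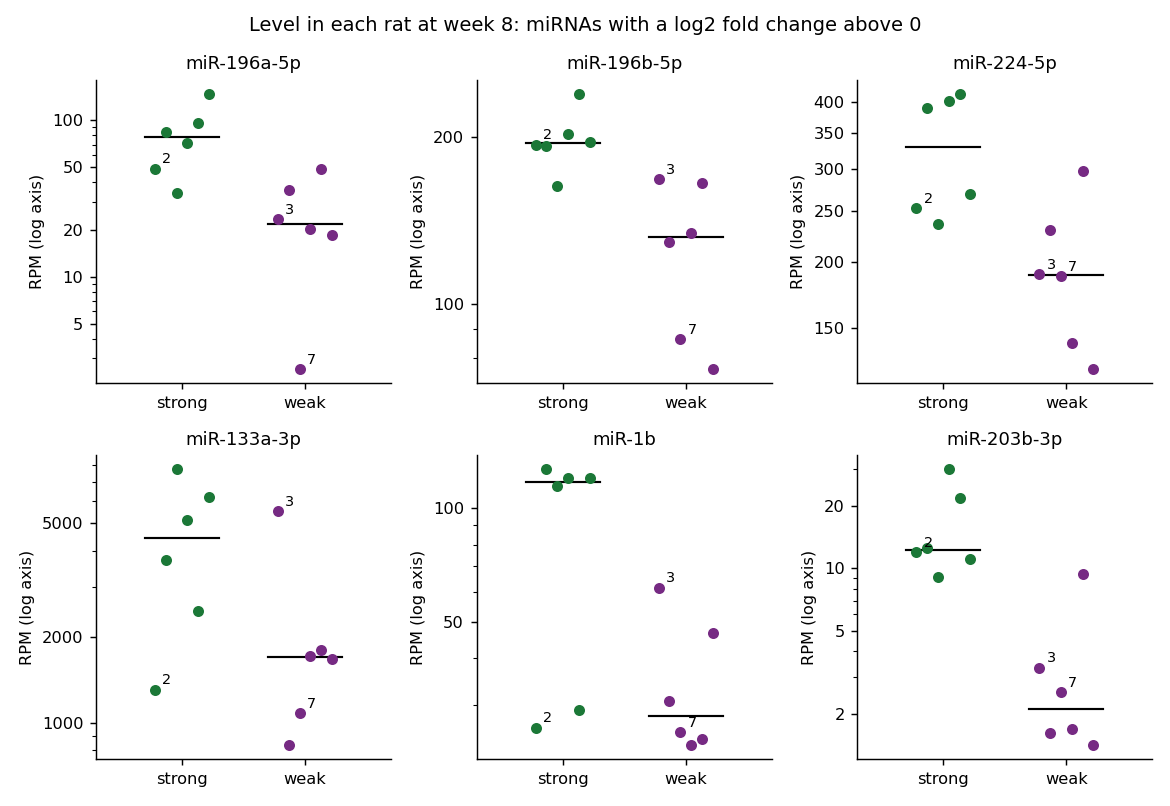
RPM on log axes in each of the 6 strong (green) and 6 weak (purple) regenerators at week 8 for miR-196a-5p, miR-196b-5p, miR-224-5p, miR-133a-3p, miR-1b and miR-203b-3p, with the group median as a line and strong rat 2 and weak rats 3 and 7 numbered. The medians are higher in strong regenerators in all 6 panels, and in each of them at least 1 rat lies in the range of the other group.

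The muscle-restricted miRNAs, or myomiRs, act on the differentiation and the fibre type of skeletal and heart muscle, and miR-133a also targets Runx2, the master factor of osteoblasts. The summed level of the list in 5 of 6 strong regenerators was above that in 5 of 6 weak regenerators. Of 12 myomiRs measured, 10 had a log2 fold change above 0 (all 572: 49.1%), with a list median of 0.97 against -0.01 over all miRNAs, and 4 reached an unadjusted p under 0.05 in that direction, where 3.32% of all miRNAs did. None had an FDR under 0.05. Members with near-identical sequences can share reads and are not independent of each other.

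miR-133a-3p, the most abundant myomiR, was 1308 to 7745 RPM in strong regenerators with a median of 4444 RPM, and 835 to 5513 RPM in weak regenerators with a median of 1695 RPM. Of the weak regenerators rat 3 stood at 5513 RPM and the other 5 at 835 to 1800 RPM, and of the strong regenerators rat 2, at 1308 RPM, lay among them. In the fit this was a 1.92-fold difference (log2 fold change 0.94, SE 0.40), with an FDR of 0.736 and an exact permutation p of 0.0649. With any rat left out it lay between 0.71, without strong rat 17, and 1.55, without weak rat 3. The fit without weak rat 3 gave an FDR of 0.029 in edgeR, which was the one call among the 12 fits that each left out a rat.

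Among the other myomiRs, miR-1b was 26.1 to 127 RPM (median 117 RPM) in strong and 23.5 to 61.6 RPM (median 28.1 RPM) in weak regenerators, a log2 fold change of 1.17 (SE 0.39). Its strong values fell into rats 5, 17, 21 and 29 at 114 to 127 RPM and rats 2 and 23 at 26.1 and 29.1 RPM, the latter within the weak range. miR-1-3p was 11.6 to 58.0 RPM (median 37.5 RPM) and 5.09 to 26.8 RPM (median 13.9 RPM), a log2 fold change of 1.00 (SE 0.44). miR-133b-3p had a log2 fold change of 0.83 (SE 0.44), which was 1.48 without weak rat 3 and 0.64 without strong rat 17. miR-206-3p, specific to skeletal muscle, had one of 2.20 (SE 0.87) at 0 to 12.5 RPM in strong and 0 to 3.33 RPM in weak regenerators.

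Heart-typical myomiRs had no common direction: the log2 fold change was 0.50 (SE 0.61) for miR-208b-3p, -0.70 (SE 1.07) for miR-208a-3p and -0.54 (SE 0.72) for miR-499-5p, with the latter pair under 10 RPM. The summed level of the list was 1370.2, 3960.2, 8029.9, 5386, 2572 and 6473 RPM in strong rats 2, 5, 17, 21, 23 and 29, and 5693, 897, 1129, 1799, 1867 and 1787 RPM in weak rats 3, 6, 7, 16, 25 and 26. The list's median was 1.29 without weak rat 3, 0.75 without strong rat 17, 0.72 with DESeq2 and 0.36 with limma-voom, where 9 of 12 lay above 0.

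Further miRNAs with higher levels in strong regenerators were miR-383-5p, miR-709, miR-708-5p, miR-128-3p and miR-149-5p. miR-383-5p was 27.2 to 57.7 RPM in strong and 7.63 to 31.9 RPM in weak regenerators, a log2 fold change of 0.86 (SE 0.35), with an exact permutation p of 0.0152. miR-709 was 19.2 to 57.7 RPM and 5.09 to 29.1 RPM, a log2 fold change of 0.83 (SE 0.36). miR-708-5p, within Tenm4, spread most, from 13.8 to 88.7 RPM in strong and from 1.68 to 50.7 RPM in weak regenerators, with a log2 fold change of 1.22 (SE 0.59) that was 0.79 without strong rat 23 and 1.896 without weak rat 25.

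The brain-enriched miR-128-3p was 4533 to 9664 RPM in strong and 4072 to 5121 RPM in weak regenerators, with a log2 fold change of 0.40 (SE 0.20) and an exact permutation p of 0.0108. Its difference leaned on strong rat 2 at 9664 RPM, without which the log2 fold change was 0.15. miR-149-5p, within the glypican gene Gpc1, was 74.1 to 163 RPM and 64.9 to 139 RPM, with a log2 fold change of 0.49 (SE 0.25).

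The 12 miRNAs named with a log2 fold change below 0 included both arms of miR-145, from the vessel wall, both arms of miR-195, miR-497-5p, miR-335, miR-190a-5p, miR-375-3p and the erythrocyte miRNAs miR-144-5p and miR-451-5p. Weak rat 26 had the highest level of all 12 rats in 9 of the 12 miRNAs named on this side, and in 59 (19.9%) of the 297 miRNAs. The miR-143 and miR-145 cluster, which keeps smooth muscle cells contractile, shows it. miR-145-5p was 2676 to 7023 RPM in strong regenerators (median 4365 RPM) and 3143 to 18735 RPM in weak regenerators (median 4596 RPM). Weak rats 26 and 16 stood at 18735 and 8446 RPM, and the other 4 weak regenerators, at 3143 to 5437 RPM, lay within the strong range.

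The log2 fold change of miR-145-5p was -0.80 (SE 0.35), with an FDR of 0.736 and an exact permutation p of 0.361, and it was -0.22 without rat 26. miR-145-3p was 148 to 293 RPM in strong regenerators, and in weak regenerators it was 1758 RPM in rat 26, 718 RPM in rat 16 and 107 to 231 RPM in the other 4. Its log2 fold change was -1.37 (SE 0.52), and -0.40 without rat 26. miR-143-3p stood at 50833 RPM in rat 26 and 19972 RPM in rat 16, with strong rat 21 at 19153 RPM and the other rats at 4176 to 10542 RPM, and its log2 fold change went from -0.86 (SE 0.51) to 0.07 without rat 26.

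The miR-195 and miR-497 cluster, whose seed is that of miR-16 and acts on cell cycle genes, had the same shape. miR-195-5p was 18.1 to 62.6 RPM in strong regenerators, 296 RPM in weak rat 26, 77.2 RPM in weak rat 16 and 10.2 to 41.3 RPM in the other 4 weak regenerators. Its log2 fold change was -1.10 (SE 0.59) and turned to 0.10 without rat 26. miR-497-5p went from -0.65 (SE 0.33) to -0.18 and miR-195-3p from -1.17 (SE 0.52) to -0.45. For miR-145-3p (216 and 192 RPM), miR-143-3p (7519 and 6363 RPM), miR-497-5p (1441 and 1370.2 RPM) and miR-195-5p (37.3 and 35.6 RPM) the median of strong regenerators was above that of weak regenerators, against the direction of the fitted means.

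miR-335, which in mammals is an intronic miRNA of the imprinted gene Mest, was 7.27 to 49.5 RPM (median 14.2 RPM) in strong and 11.6 to 178 RPM (median 30.4 RPM) in weak regenerators. Its log2 fold change was -1.54 (SE 0.56), and -0.67 without rat 26. miR-190a-5p, within Tln2, stood at 271 RPM in rat 26 and at 4.99 to 58.7 RPM in the other 11 rats, and its log2 fold change went from -1.69 (SE 0.75) to 0.03 without that rat, with medians of 19.1 RPM in strong and 10.7 RPM in weak regenerators. miR-10a-3p went from -0.61 (SE 0.34) to -0.29, and miR-99b-3p from -0.77 (SE 0.31) to -0.46. The summed level of 8 vascular miRNAs was 92506 RPM in weak rat 26, 53763 RPM in weak rat 16 and 54882 RPM in strong rat 21, against 26728 to 38510.3 RPM in the other 9 rats. The list's median of -0.46 was -0.02 without rat 26.

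**Figure D3:**
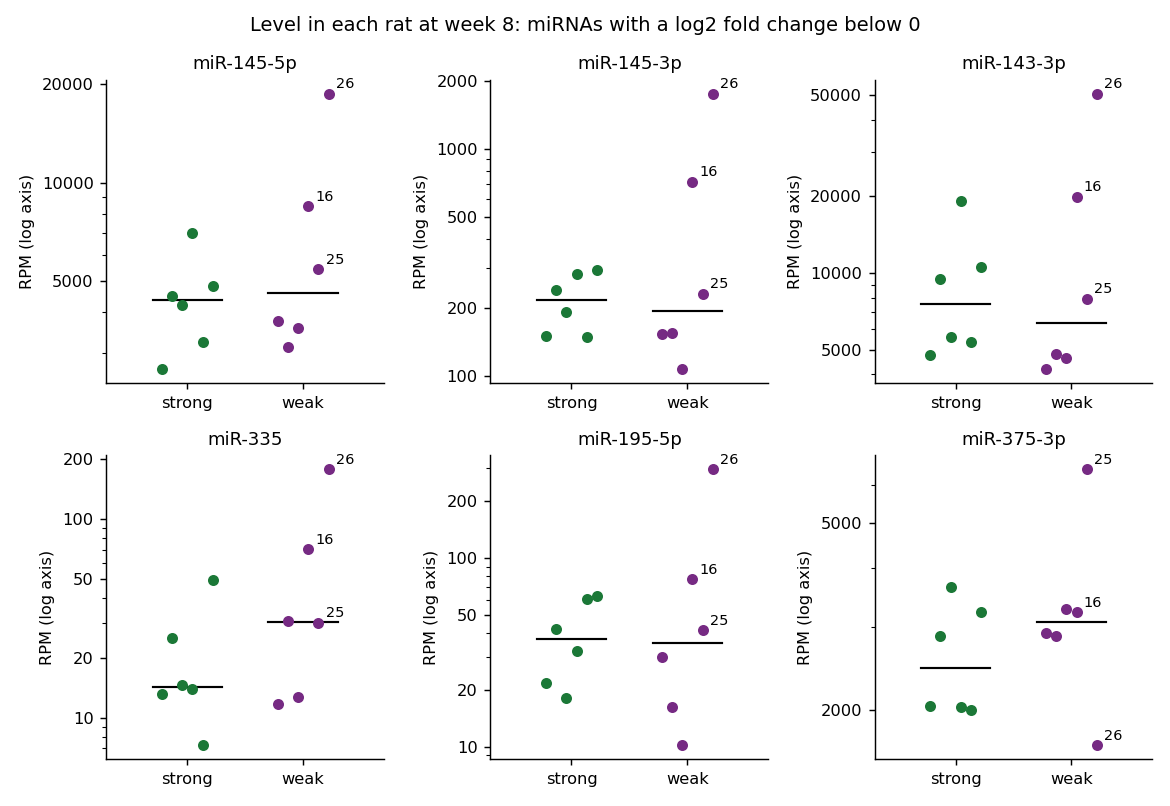
RPM on log axes in each strong (green) and weak (purple) regenerator at week 8 for miR-145-5p, miR-145-3p, miR-143-3p, miR-335, miR-195-5p and miR-375-3p, with the group median as a line and weak rats 16, 25 and 26 numbered. Weak rat 26 is the highest point in the first 5 panels, and weak rat 25, at 6491 RPM, in the panel of miR-375-3p.

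The same miRNAs had been high in another weak regenerator earlier in the study. At week 1, weak rat 3 had 2066 RPM of miR-145-3p, 70072 RPM of miR-143-3p and 959 RPM of miR-335, where the other 11 rats had 133 to 330.4, 3761 to 12854 and 21.3 to 125 RPM. At week 1, rats 26 and 16 had 242 and 330.4 RPM of miR-145-3p, and at week 8 rat 3 had 153 RPM. At week 4 miR-145-3p was 92.4 to 308 RPM in all 12 rats. The log2 fold changes of strong over weak regenerators at week 1 were -1.36 (SE 0.51) for miR-145-3p and -2.06 (SE 0.70) for miR-335, and they rested on a different rat than those at week 8.

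miR-375-3p, an miRNA of pancreatic islets and of epithelia, had a log2 fold change below 0 that did not pass. It was 1998 to 3646 RPM (median 2459.9 RPM) in strong and 1685 to 6491 RPM (median 3069.5 RPM) in weak regenerators. Weak rat 25 stood alone at 6491 RPM, and weak rat 26, at 1685 RPM, was the lowest of all 12. The log2 fold change was -0.45 (SE 0.22), with an FDR of 0.736 in edgeR and an exact permutation p of 0.351, and it was -0.21 without rat 25 and -0.59 without rat 26. Of the 5 endocrine miRNAs measured, miR-375-3p included, 3 lay above 0 with a median of 0.06. Without strong rat 29 only 4 of them had a read, with a median of -0.23. With all rats kept, the median over the 4 members of at least 10 RPM was -0.19.

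Of 7 erythrocyte miRNAs, 6 had a log2 fold change below 0, where 50.9% of all 572 did, with a median of -0.26, and 1 reached an unadjusted p under 0.05 and none an FDR under 0.05. miR-144-5p was 1238 to 1844 RPM (median 1451 RPM) in strong and 1339.9 to 2668 RPM (median 1807 RPM) in weak regenerators, a log2 fold change of -0.41 (SE 0.19), which was -0.26 without weak rat 6 at 2668 RPM. miR-451-5p, which shares the primary transcript of miR-144 and drives red cell maturation, was 114998 to 175680.0 RPM and 130893 to 194617 RPM, a log2 fold change of -0.30 (SE 0.17). miR-486 had -0.27 (SE 0.18) and miR-16-5p 0.02 (SE 0.14). The haemolysis ratio given above is computed from miR-451-5p, so it is not separate from these values. Its difference of strong minus weak regenerators was -0.26 on the log2 scale, with an exact permutation p of 0.312. The part of haemolysis in these values was not tested.

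Of 8 platelet miRNAs 7 were above 0, where 49.1% of all 572 were, with a median of 0.09. Without strong rat 21, 5 of 8 were above 0 with a median of 0.07. With library size in place of TMM scaling the median was 0.17. The most abundant, miR-191a-5p, was 47713 to 71357 RPM in strong and 37934 to 55215 RPM in weak regenerators, a log2 fold change of 0.27 (SE 0.15). The summed platelet list was 86846 to 102351 RPM in strong regenerators and 63454 to 80992 RPM in 5 weak regenerators, with weak rat 25 at 90649.9 RPM. This sum is scaled to library size without TMM, and miR-191a-5p is its largest part. Of 9 leukocyte miRNAs 7 were above 0 with a median of 0.09, against 4 of 9 and -0.00087 without strong rat 29, led in level by the lymphocyte miRNAs miR-150-5p (0.16, SE 0.18) and miR-342-3p (0.22, SE 0.17). None of the platelet or leukocyte miRNAs had an unadjusted p under 0.05.

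Of 24 osteogenic miRNAs with a read, 18 lay below 0 (all 572: 50.9%) with a median of -0.07, and with library size in place of TMM scaling 11 lay below 0 with a median of 0.01. In the main comparison miR-335 was the one with an unadjusted p under 0.05. The most abundant of them were miR-26a-5p (-0.23, SE 0.16), miR-21-5p (0.14, SE 0.20) and miR-23a-3p (-0.05, SE 0.14). All 4 cartilage miRNAs, the arms of miR-140 and miR-455, lay above 0 (all 572: 49.1%), with a median of 0.17. They ran from 0.09 (SE 0.26) for miR-455-5p to 0.31 (SE 0.25) for miR-140-5p. Without strong rat 23 and without weak rat 3, 3 of 4 lay above 0, with medians of 0.097 and 0.14. Arms of the same hairpin are not independent of each other. The arms of miR-590, whose 5p arm was coded on the plasmid of one treatment, were not in the table.

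Liver miRNAs had 6 of 9 above 0, where 49.1% of all 572 were, with a median of 0.16. Among them was miR-122-5p, which makes up most of the miRNA of hepatocytes. It was at 356 to 848 RPM in strong and 121 to 584 RPM in weak regenerators (0.51, SE 0.29). Epithelial miRNAs had 8 of 11 above 0 with a median of 0.09, and their summed level was 10051 to 32687 RPM in strong and 7378 to 33506 RPM in weak regenerators. Without strong rat 29 the epithelial median was -0.12, with 5 of 11 above 0. In the neural list, with 4 of 10 above 0 and a median of -0.09 (0.03 without weak rat 25), miR-9a-5p was at 1500.1 RPM in strong rat 21 and at 14.5 to 220.1 RPM in the other 11 rats.

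Among families and clusters, the miR-34 family, which p53 induces, had 5 of 6 below 0 with a median of -0.44, led by miR-34b-5p with -0.51 (SE 0.31), and none at an unadjusted p under 0.05. Over the 4 members of at least 10 RPM its median was -0.22. The imprinted Dlk1-Dio3 cluster had 18 of 31 below 0 with a median of -0.13, and the median was 0.18 without weak rat 25, 0.11 without strong rat 2 and 0.0042 without strong rat 23. The medians of let-7 (-0.02, 9 miRNAs), miR-17-92 and its relatives (-0.03, 17), miR-30 (-0.02, 7), miR-181 (-0.0024, 7) and the miR-322 cluster (-0.05, 12) lay close to the -0.01 of all miRNAs, and each of them turned above 0 with library size in place of TMM scaling and without at least 1 of the rats. Without weak rat 26 let-7 had 8 of 9 above 0 with a median of 0.30, and the miR-322 cluster 9 of 12 with a median of 0.19. The miR-15/16 family had a median of -0.20 over 8 miRNAs, 3 of them the arms of miR-195 and miR-497 described above.

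**Figure D4:**
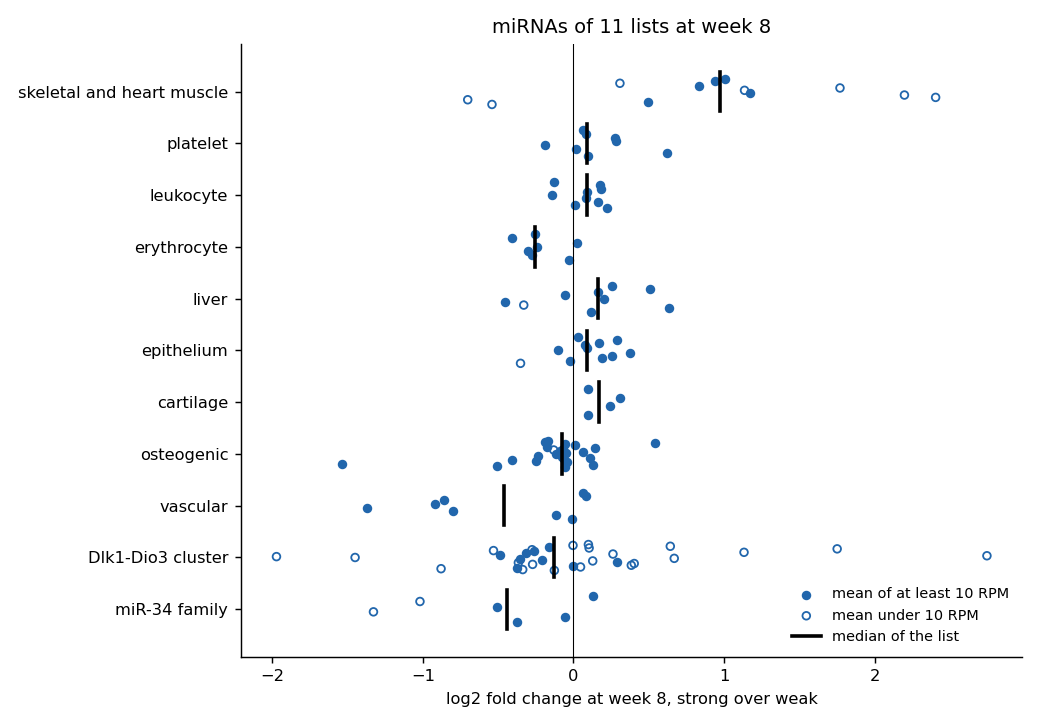
Log2 fold change of strong over weak regenerators at week 8 (horizontal axis) for the miRNAs of 11 lists (rows), filled for a mean of at least 10 RPM and open below it, with the list median as a black line. The muscle list has its median at 0.97 and the vascular list at -0.46, and the medians of the other lists lie between -0.44 and 0.17.

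The difference at week 8 was then set against the difference the same rats had before surgery. The week 8 libraries stood apart from the other weeks in their spike-in reads. A rise or fall within a rat therefore cannot be told apart from a difference between libraries. The difference between the groups in the change from baseline compares the same weeks on both sides. The difference in the change from baseline to week 8 was tested for 622 miRNAs with edgeR, and 0 (0%) had an FDR under 0.05, with 26 (4.18%) at an unadjusted p under 0.05, 13 (2.09%) in each direction. With the rat as a block the counts were 0 and 20. The smallest FDR was 0.102, for miR-203b-3p, and 0.11 with the block.

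miR-203b-3p was alike in both groups before surgery, with 11.5 to 19.1 RPM in strong and 13.3 to 26.2 RPM in weak regenerators. From baseline to week 8 it was lower in all 6 weak regenerators, with changes of -3.49 to -1.26 on the log2(RPM + 1) scale, and in strong regenerators the change ran from -0.998 in rat 17 to 1.21 in rat 21. The exact permutation p of the difference in change was 0.00216 without adjustment, the smallest that 6 against 6 rats can give. The miRNA was described because its values were seen, and weak regenerators had 1 to 5 reads of it at week 8. The log2 difference in change was 2.46 (SE 0.58). In the libraries of the other 3 time points it was never below 7.1 RPM in any rat, and 5 weak regenerators at week 8 were at 1.41 to 3.33 RPM.

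miR-224-5p had been lower in strong regenerators before surgery, with a log2 fold change of -0.54 (SE 0.26), and was higher at week 8. It was lower at week 8 than at baseline in 6 of 6 weak regenerators, most in rat 26 (from 867 to 126 RPM) and rat 3 (from 741 to 189.6 RPM), and in 3 of 6 strong regenerators, with an exact permutation p of 0.0173. miR-196a-5p was lower at week 8 than at baseline in all 12 rats, with a change of -1.297 ± 0.503 (SD, n = 6) in strong and -2.76 ± 1.503 (SD, n = 6) in weak regenerators on the log2(RPM + 1) scale, with an exact permutation p of 0.026 for the difference. Neither passed after adjustment over the 24 named miRNAs, with a smallest adjusted value of 0.312. Both were named for their small p at week 8, and the change uses the same week 8 values. The tests of their change are therefore not independent of that choice, and the adjustment over the 24 does not account for it.

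The liver miRNA miR-802-3p, which was not among the named miRNAs and was chosen after its values were seen, was higher at week 8 than before surgery in 6 of 6 strong and 1 of 6 weak regenerators. It stood at 8.63 to 13.2 RPM before surgery and 20.3 to 41.7 RPM at week 8 in strong regenerators, and at 9.88 to 54.3 and 4.99 to 41.3 RPM in weak regenerators. The exact permutation p was 0.00433, without adjustment, and the edgeR FDR was 0.674.

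The myomiRs were also compared before surgery, where none of them passed. The log2 fold change of miR-133a-3p was 1.51 (SE 0.51) at baseline, 0.72 (SE 0.37) at week 1, 0.70 (SE 0.38) at week 4 and 0.94 (SE 0.40) at week 8. The change from baseline was 0.92 ± 1.19 (SD, n = 6) in strong and 0.79 ± 1.06 (SD, n = 6) in weak regenerators, and the exact permutation p of their difference was 0.868. At baseline its FDR was 0.541, with strong rats 29 and 21 at 9574 and 5699 RPM and strong rats 2 and 5 at 400.0 and 773 RPM, against 304 to 1652 RPM in weak regenerators. miR-1-3p had 1.35 at baseline, with an FDR of 0.589, and 1.00 at week 8. miR-375-3p had -0.72 (SE 0.23) at baseline and -0.45 at week 8.

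**Figure D5:**
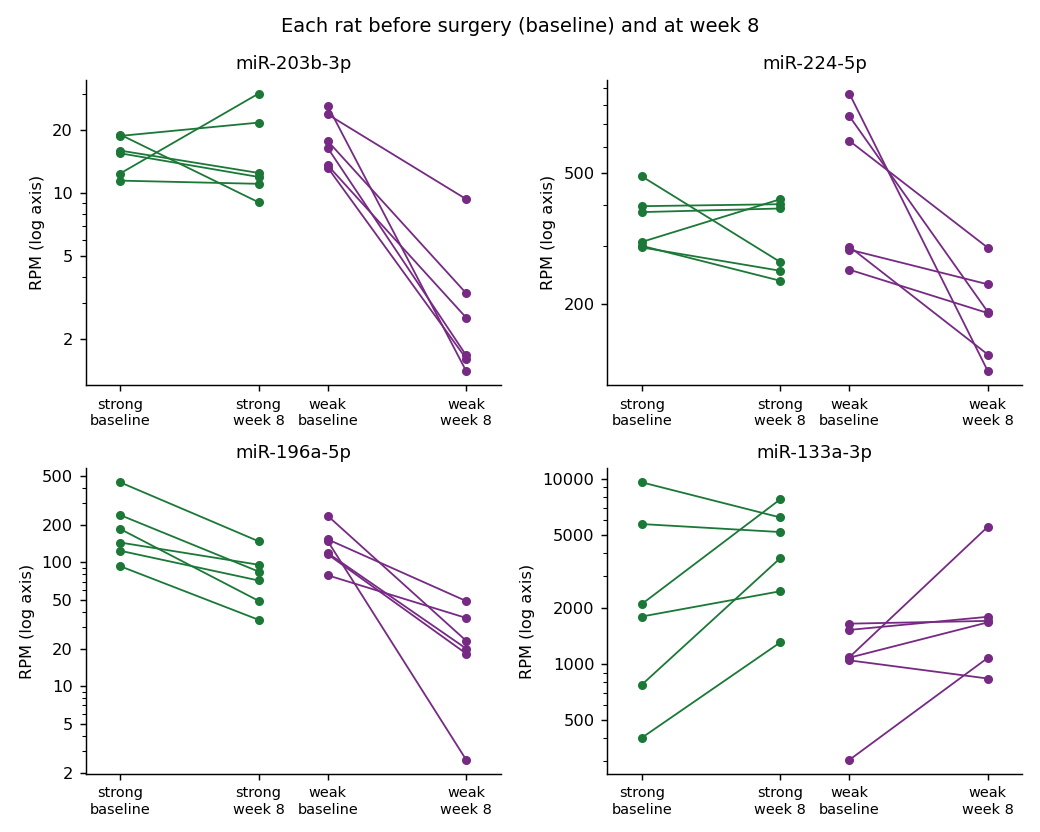
RPM on log axes before surgery and at week 8, joined for each strong (green) and weak (purple) regenerator, for miR-203b-3p, miR-224-5p, miR-196a-5p and miR-133a-3p. The lines of all 6 weak regenerators go down for miR-203b-3p and miR-224-5p, those of all 12 rats go down for miR-196a-5p, and for miR-133a-3p they go up in 4 strong and 5 weak regenerators.

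The arms of a hairpin, which are cut from the same precursor, gave a description of how far the differences repeat within the libraries. Of 71 hairpins with both arms at a mean of at least 10 RPM, 45 had arms with the same sign, 25 lower and 20 higher in strong regenerators, and Pearson's r of their log2 fold changes was 0.58 and Spearman's rho 0.44 across hairpins, which share the libraries and are not independent replicates. Both arms of miR-145 (-0.80 and -1.37), miR-143, miR-195 and miR-10a were lower, the hairpins that were high in weak rat 26. Of the seeds shared by at least 2 of the 297 miRNAs, those of miR-196 (median 1.09), miR-1 (1.09) and miR-133 (0.89) had the highest medians, each over 2 miRNAs. The members of each of these pairs differ at 1 of 22 bases and can share reads, so their agreement is not independent.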

How the data were processed

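Plasma RNA was extracted with miRNeasy reagents, with UniSp spike-ins, and RealSeq single-adapter libraries were sequenced. The plasma input is given as 80 µL in the methods and 200 µL in the labels. Per the methods, reads were trimmed with cutadapt 3.3, checked with FastQC 0.11.9 and MultiQC 1.10, and mapped with Bowtie 1.3.0 and miRDeep2 to the rat genome and the rat miRNAs of miRBase; the processing notes of the submitters name a human build, and no coordinate of the reads is used here. The authors deposited raw read counts per mature miRNA, 645 miRNAs and 3 spike-ins in 48 samples, with no replicate pooled. Spike-ins were left out of library sizes. Ligation bias means that RPM of different miRNAs need not rank their true amounts.

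Counts of the 12 week 8 samples were fitted with edgeR 4.0.16 (R 4.3.3, TMM scaling, quasi-likelihood test), followed by the independent filter on abundance of DESeq2 1.42.0 and Benjamini-Hochberg adjustment at 0.05, two-sided, without covariates. The change from baseline was tested as the interaction of group and week over 24 samples. Baseline samples carry no regeneration label and were assigned through the animal. Single values were tested on log2(RPM + 1) with exact permutation tests over the 924 assignments of 6 of 12 rats (two-sided unless stated), whose smallest p is 0.00216. Limma 3.58.1 (voom) and DESeq2 were alternatives. Scripts were tested on simulated data.

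The 24 named miRNAs are, in each direction, the 12 with the smallest p among those with a mean of at least 10 RPM. They include miR-133a-3p and miR-375-3p, which the rule names in any case. Further members of lists and relatives by seed or cluster are given singly and did not enter the adjustment over the 24. The members and lists were chosen with earlier results of these data known. Of the listed miRNAs, miR-1-5p, miR-375-5p, miR-124-5p and both arms of miR-590 were not in the table. Week 8 libraries were no copies of each other (chi-square per degree of freedom 18.1 to 169 over 66 pairs). Rats pair the weeks because each is the same animal; the deviations of a rat at baseline and week 8 had a mean r of 0.06 (-0.11 to 0.28). Of 645 table names, 583 matched a RefSeq sequence (GRCr8).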

Additional observations from a re-analysis of the deposited data

Results flagged for a closer look

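Of 64 groups of 6 values checked, with miRNAs on the log2(RPM + 1) scale, 4 had 1 rat far from the other 5 by Dixon's ratio at 95%. Chance flags about 1 in 20. Weak rat 7 was lowest in 3 of them, with 2.54 RPM of miR-196a-5p (1 read), 5.09 RPM of miR-709, and 228 miRNAs with over 10 reads, in the library with the fewest miRNA reads (393259). Without this rat the log2 fold change was 1.40 for miR-196a-5p and 0.67 for miR-709. Weak rat 25 was highest for miR-149-5p with 139 RPM, and without it the log2 fold change was 0.66. Weak rat 26, the highest rat in 9 of the 12 miRNAs named on the lower side, was not flagged on this log scale.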

How the results depend on the processing

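The week 8 count of 0 called miRNAs was 1 with all 48 samples (miR-203b-3p, FDR 0.0223), in a fit without a term for the rat. It ranged from 0 to 1 with a rat left out (miR-133a-3p without weak rat 3). The count was 0 under the other alternatives, which were other scalings, filters and tools. The count for the change from baseline was 0 with the rat as a replicate block, 1 with filterByExpr (miR-203b-3p, FDR 0.0344) and 0 to 1 with a rat left out (miR-203b-3p without weak rat 25, FDR 0.0266). The profile distance of 0.000379 was -0.000112 over miRNAs of at least 1 RPM and -0.000947 over those of at least 100 RPM. With a rat left out it ranged from -0.00152 to 0.00274, below 0 without any one of the 6 strong and above 0 without any one of the 6 weak regenerators. Leaving out a rat gives its group fewer of the within-group pairs, and median r was 0.969 in weak against 0.978 in strong regenerators. The sign pattern therefore cannot be read as the effect of single rats. With a rat left out, miR-190a-5p ranged from -2.08 to 0.0325 and miR-195-5p from -1.31 to 0.0992, both turning without weak rat 26. No exact test of named miRNAs or library measures passed after adjustment under any alternative. A miRNA of 10 to 100 RPM had a median SE of 0.35, which limits what could be called.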
